A study of Mus musculus with 14 samples.

Results

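A set of 10 genes of fatty acid synthesis, desaturation and elongation was followed in fibroblasts of mouse embryos, the spindle-shaped cells that grow out of connective tissue in culture, during loss of amino acids or of glucose. They were Acly, Acaca, Fasn, Scd1, Scd2, Fads1, Fads2, Elovl1, Elovl5 and Elovl6, 10 of the 40800 genes in the deposited count table. They were chosen by name, each stood for the transcript line of its symbol that had the highest total of reads, and all 10 passed the filter on low counts. Total RNA of bulk cells gave 14 sequenced libraries in 7 groups of 2. The groups were unstarved cells collected at 0 h (control), cells kept for 3, 6 or 12 h in amino acid-free medium, and cells kept for 3, 6 or 12 h in glucose-free medium. All cells had first settled for a day in high glucose medium with ordinary serum. Both starvation media held dialyzed serum, and starved cells were frozen in dialyzed serum after trypsin treatment. Control cells kept their medium and went into the freezer in ordinary serum, so handling and starvation cannot be told apart in a comparison with the control, whereas both starvations shared that handling. The labels give no strain, no age and no word on whether both libraries of a group stem from separate cultures. The study's design text also names a transfection, which no sample label carries. The p-values thus measure no more than the spread between these samples, and that spread may be technical.

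The libraries held 35270751 to 55349673 reads with 1 transcript counted per gene. Of 12 fibroblast markers, 9 reached 1 CPM (reads of a gene scaled to a common library size with TMM factors) in some library, among them Col1a1, Fn1 and Vim, whereas Lum was at 0 and Thy1 and Dcn stayed near 0 in all libraries. The summed level of these markers was 2432 to 2634 CPM at 12 h of amino acid starvation, 6277 to 6326 CPM at 12 h of glucose starvation and 8291 to 9010.0 CPM in the control. Fat cell markers summed to 2.45 to 10.99 CPM over all libraries, and 1 of 8 (Plin4) reached 1 CPM. Other marker sums moved with the groups. Endothelial markers summed to 12.6 to 23.6 CPM in the starved groups and 4.21 to 5.08 CPM in the control. Only 1 of these 6 (Kdr, 3.9 to 23.0 CPM) reached 1 CPM in any library. Macrophage markers summed to 15.2 to 24.0 CPM in the starved groups and 14.4 to 14.9 CPM in the control, and 2 of 6 (Csf1r and Cd68) reached 1 CPM. Of the neural and muscle markers that follow, 3 of 6 and 2 of 6 reached 1 CPM in some library. Neural markers summed to 35.3 to 36.5 CPM at 6 and 12 h of amino acid starvation, 75.0 to 76.4 CPM at 6 h of glucose starvation and 56.2 to 56.3 CPM in the control, lower and higher at the same times as most of the 10 genes. Muscle markers summed to 0.736 to 0.793 CPM at 12 h of amino acid starvation, 1.86 to 1.89 CPM at 12 h of glucose starvation and 4.19 to 4.53 CPM in the control. Epithelial markers stayed at 0.0755 to 0.455 CPM. The part of any of these in the results was not tested. In bulk RNA, fewer cells that use a gene and less of its RNA per cell cannot be told apart.

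Fatty acids are built in the cytosol from citrate. ATP citrate lyase (Acly) splits citrate to acetyl-CoA, acetyl-CoA carboxylase (Acaca) makes malonyl-CoA from it, and fatty acid synthase (Fasn) joins these units to palmitate. The stearoyl-CoA desaturases Scd1 and Scd2 put the first double bond into saturated chains, Elovl6 lengthens palmitate to stearate, Elovl1 lengthens very long saturated chains, and Elovl5 acts on polyunsaturated ones together with the desaturases Fads1 and Fads2. Sterol regulatory element-binding proteins (Srebf1, Srebf2), which Insig proteins hold in the endoplasmic reticulum when sterols are plentiful, are known to drive most of these genes, with the liver X receptor (Nr1h3) and the carbohydrate-responsive factor ChREBP (Mlxipl) as further inputs known best from liver and fat.

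The RefSeq promoter tables of the mouse build GRCm38.p6 held 8 start site windows for 7 of the 10 genes. Windows of 250 bases upstream were read for letters that match binding motifs of factors known to act on lipid or starvation genes. Shown are Elovl6 and Fads2, the genes with a window that fell furthest under amino acid starvation, and Acly and Elovl5, which were higher than the control at 6 h of glucose starvation. Each line runs 5′ to 3′ along the gene's strand, and capitals mark the matches. The windows lie at chr3:129532136-129532385 (plus strand), chr19:10101504-10101753 (minus strand), chr11:100528001-100528250 (minus strand) and chr9:77917115-77917364 (plus strand).
Elovl6: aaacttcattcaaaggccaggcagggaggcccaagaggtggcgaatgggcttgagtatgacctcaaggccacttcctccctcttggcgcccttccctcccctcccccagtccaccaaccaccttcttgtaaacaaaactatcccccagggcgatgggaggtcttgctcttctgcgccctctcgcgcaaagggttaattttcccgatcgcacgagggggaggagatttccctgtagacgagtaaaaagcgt
Fads2: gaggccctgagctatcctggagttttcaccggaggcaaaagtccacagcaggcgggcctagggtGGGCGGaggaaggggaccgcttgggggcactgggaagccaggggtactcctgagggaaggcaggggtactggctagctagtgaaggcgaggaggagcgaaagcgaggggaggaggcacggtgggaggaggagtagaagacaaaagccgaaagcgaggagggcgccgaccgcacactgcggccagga
Acly: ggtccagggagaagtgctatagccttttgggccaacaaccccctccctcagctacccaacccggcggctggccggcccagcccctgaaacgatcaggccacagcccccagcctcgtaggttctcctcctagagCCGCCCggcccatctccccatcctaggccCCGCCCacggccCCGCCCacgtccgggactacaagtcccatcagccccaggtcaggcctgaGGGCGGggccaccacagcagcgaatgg
Elovl5: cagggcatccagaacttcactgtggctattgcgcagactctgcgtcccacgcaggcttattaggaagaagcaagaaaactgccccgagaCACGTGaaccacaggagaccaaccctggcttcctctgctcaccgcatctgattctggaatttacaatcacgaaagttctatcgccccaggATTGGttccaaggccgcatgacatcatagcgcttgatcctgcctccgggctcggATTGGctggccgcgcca
Matches were sought on both strands for the GC box GGGCGG of Sp1, the CCAAT box CCAAT of NF-Y, the E-box CACGTG, the sterol regulatory element TCACNCCAC and the amino acid response element TGATGNAA. No letters of the Elovl6 window matched any of these. Counted backward from the start site to the first letter of the match, Fads2 held a GC box at -186 and Acly held GC boxes at -117, -88, -76 and -27. Elovl5 held CCAAT boxes at -71 and -17 and an E-box at -161. Over the 8 windows, 4 held a GC box, 3 a CCAAT box and 1 an E-box, against 32.74%, 33.85% and 6.02% of all 32851 mouse windows. The sterol regulatory element was in 0 of the 8 and in 1.05% of all windows, and the amino acid response element in 0 of the 8 and in 3.45%. Letters absent from a window of this length say nothing about a factor.

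Counts were tested with edgeR's quasi-likelihood model over all libraries, with p-values adjusted by Benjamini-Hochberg over 17696 genes and a threshold of 0.05. All fold changes below are on the log2 scale, with ± for the standard error (SE), and all 6 comparisons with the control share its 2 libraries. At 3 h of amino acid starvation, 9 of the 10 genes were lower than in the control and the other, Elovl5, did not pass, where 32.1% of all tested genes were lower and 27.9% higher. At 6 h all 10 were lower, against 33.3% lower and 32.3% higher among all genes. At 12 h 9 were lower and Acly did not pass, against 32% lower and 34.9% higher. The median log2 fold change of the 10 genes was -0.48, -0.74 and -0.83 at 3, 6 and 12 h, where that of all genes was -0.07, -0.01 and 0.06.

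Glucose starvation gave another course. At 3 h 5 genes were lower than in the control (Scd2, Elovl6, Scd1, Fads2 and Acaca) and Elovl5 was higher, where 23.1% of all genes were lower and 20.3% higher. By 6 h 6 genes were higher (Acly, Fasn, Scd1, Fads1, Elovl1 and Elovl5) and the other 4 did not pass, against 23.3% higher and 24.2% lower among all genes. At 12 h Fads1, Acly and Scd1 were higher and Elovl6, Acaca and Scd2 lower, against 30.4% higher and 28% lower. The median of the 10 genes was -0.22, 0.29 and 0.05 at 3, 6 and 12 h, where that of all genes was -0.04, -0.01 and 0.01. At 12 h the members' shares in each direction were close to those of all genes.

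**Figure D1:**
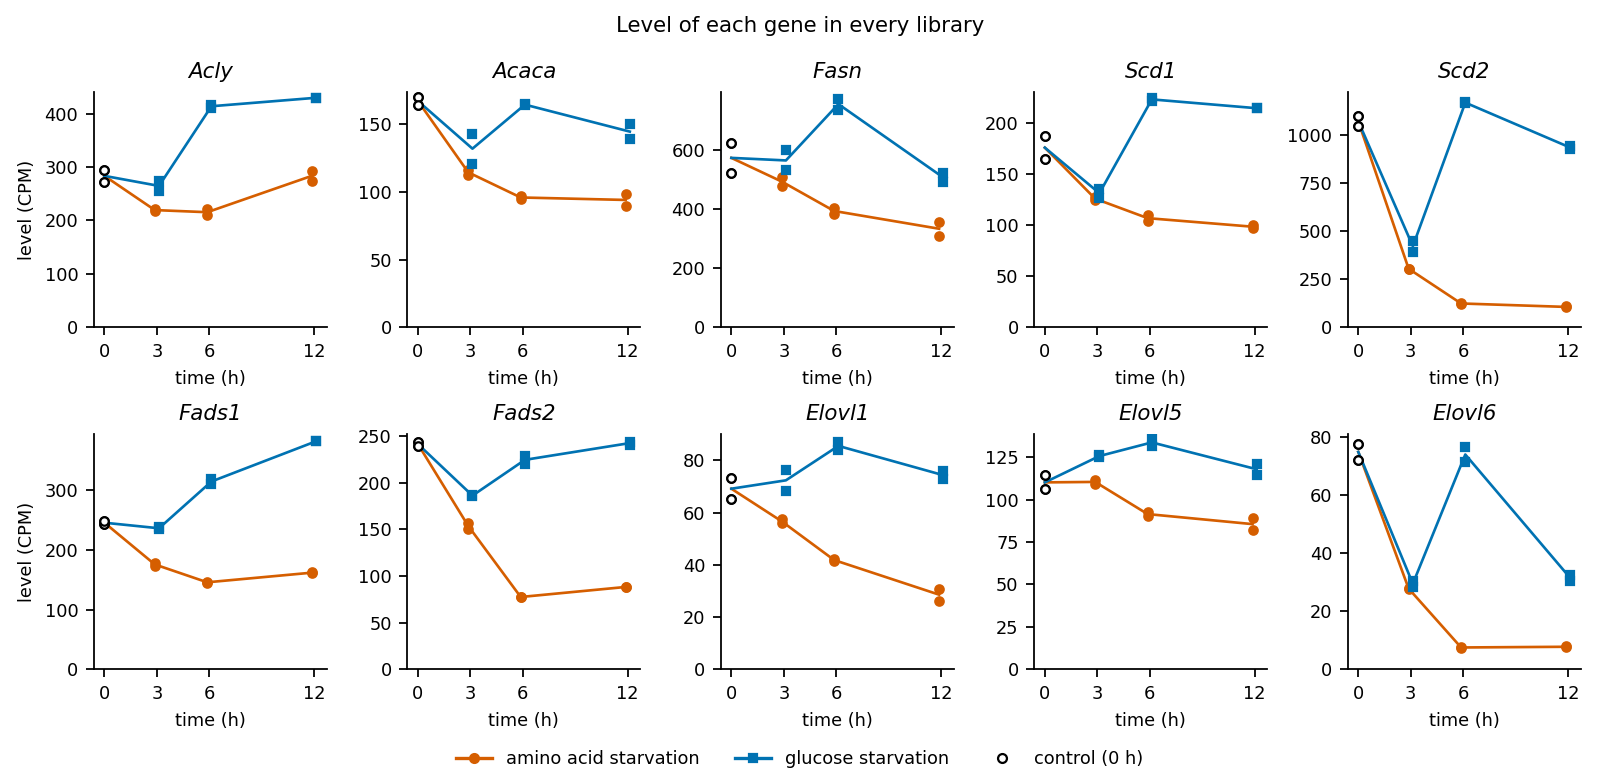
Level in CPM (linear axis from 0) of each of the 10 genes against hours of starvation, one point per library, with lines through the group means and open circles for the 2 control libraries at 0 h. Under amino acid starvation Scd2, Elovl6 and Fads2 stay low after 3 h. Under glucose starvation the same genes are low at 3 h and stand near the control at 6 h, and Elovl6 is low again at 12 h.

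Some calls depended on how libraries were scaled. With library totals in place of TMM factors, the median log2 fold change of all genes moved to -0.24 at 3 h and 0.19 at 12 h of amino acid starvation, both against control cells. At 3, 6 and 12 h of glucose starvation it moved to -0.21, -0.14 and -0.09. At 3 h of amino acid starvation 34.2% of the called genes were higher with library totals, against 46.5% with TMM, and all 10 members were then lower, with Elovl5 at -0.17 (adjusted p = 0.00999), against 0.00 with TMM. At 3 h of glucose starvation 25.7% of the called genes were higher with library totals, against 46.8% with TMM, and 7 members were then lower, with Acly at -0.27 (adjusted p = 2.45e-04) and Fads1 at -0.22 (adjusted p = 5.55e-04) added, while Elovl5 at 0.02 (adjusted p = 0.78) was no longer called higher. At 6 h of glucose starvation 33.1% of the called genes were higher with library totals, against 49% with TMM, and the same 6 members were higher while Fads2, at -0.24 (adjusted p = 3.47e-04), was called lower. Acly at 12 h of amino acid starvation was at 0.13 (adjusted p = 0.035) with library totals. The same counts enter both scalings, and a member's values differ by about the shift of the median.

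Of the 3 enzymes that make palmitate, Acaca and Fasn fell and stayed low without amino acids, whereas Acly fell and was back at 12 h. Acly held 294 and 273 CPM in the control. In amino acid starvation the level was 221 and 218 CPM at 3 h, 221 and 209 CPM at 6 h, and 293 and 275 CPM at 12 h. After glucose loss Acly held 273 and 256 CPM at 3 h, 417 and 411 CPM at 6 h, and 430.2 and 429.7 CPM at 12 h. All 4 libraries at 3 and 6 h without amino acids were below both control libraries, and all 4 at 6 and 12 h without glucose were above them. The fold changes were -0.37 ± 0.055 (adjusted p = 1.30e-06) and -0.40 ± 0.055 (adjusted p = 3.09e-07) at 3 and 6 h without amino acids, and 0.55 ± 0.055 (adjusted p = 2.19e-09) and 0.60 ± 0.055 (adjusted p = 1.55e-10) at 6 and 12 h without glucose. At 12 h of amino acid starvation Acly was at 0.00 ± 0.055 (adjusted p = 0.985), its libraries standing at the control's level. At 3 h of glucose starvation it was at -0.10 ± 0.055 (adjusted p = 0.155) and passed with library totals (above) and without control replicate 2 (-0.16, adjusted p = 0.0459).

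Acaca, whose product malonyl-CoA also holds back fatty acid oxidation, held 170.1 and 164 CPM in the control. Without amino acids it had 116 and 113 CPM at 3 h, 94.5 and 97.4 CPM at 6 h, and 98.8 and 89.4 CPM at 12 h. In glucose starvation it held 143 and 121 CPM at 3 h, 164 and 165 CPM at 6 h, and 150.3 and 139 CPM at 12 h. Every library without amino acids was below both controls, and the libraries at 6 h without glucose stood at the control's level. Its fold changes in amino acid starvation were -0.55 ± 0.066 (adjusted p = 3.23e-08), -0.80 ± 0.066 (adjusted p = 1.08e-11) and -0.83 ± 0.066 (adjusted p = 4.43e-12) at 3, 6 and 12 h. Under glucose starvation Acaca was lower at 3 h, at -0.34 ± 0.066 (adjusted p = 9.87e-05), and at 12 h, at -0.21 ± 0.066 (adjusted p = 0.00737), with -0.02 ± 0.066 (adjusted p = 0.8) between. The call at 12 h did not pass without glucose starvation 12 h replicate 2 (-0.15, adjusted p = 0.128).

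Fasn, the multi-domain enzyme that releases palmitate, had 622 and 522 CPM in the control. The libraries of amino acid starvation held 508 and 477 CPM at 3 h, 402 and 384 CPM at 6 h, and 356 and 309 CPM at 12 h. Its libraries without glucose held 597 and 529.8 CPM at 3 h, 773 and 735 CPM at 6 h, and 519.6 and 492 CPM at 12 h. The ratio between the control libraries was larger here than for the other genes, yet every library without amino acids was below both, and both libraries at 6 h without glucose were above both. Fasn fell to a log2 fold change of -0.54 ± 0.078 (adjusted p = 2.34e-06) at 6 h and -0.78 ± 0.078 (adjusted p = 1.01e-08) at 12 h of amino acid starvation. The smaller change at 3 h, -0.22 ± 0.077 (adjusted p = 0.0197), did not pass without control replicate 1 (-0.09, adjusted p = 0.368), without amino acid starvation 3 h replicate 2 (-0.17, adjusted p = 0.143), with RLE size factors (adjusted p = 0.0541) or with a stricter filter (adjusted p = 0.0672). Without glucose Fasn was higher at 6 h, by 0.40 ± 0.077 (adjusted p = 2.04e-04), with -0.02 ± 0.077 (adjusted p = 0.849) at 3 h. At 12 h it was at -0.18 ± 0.077 (adjusted p = 0.0545), a value that was called lower with DESeq2 (adjusted p = 0.0316), with library totals (-0.28, adjusted p = 0.00689) and without control replicate 2 (-0.30, adjusted p = 0.00173).

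The stearoyl-CoA desaturases moved in the same direction under amino acid starvation but by unequal amounts. Scd2 held 1043 and 1095 CPM in the control. After amino acid loss the values were 304 and 302 CPM at 3 h, 122 and 123 CPM at 6 h, and 103 and 107 CPM at 12 h. After glucose loss it held 449 and 392 CPM at 3 h, 1163 and 1169 CPM at 6 h, and 941 and 924 CPM at 12 h. The 6 libraries without amino acids were far below both controls, and so were both libraries at 3 h without glucose, whereas those at 6 h without glucose lay just above the controls. Scd2 fell to a log2 fold change of -1.82 ± 0.058 (adjusted p = 4.84e-21), -3.12 ± 0.062 (adjusted p = 4.89e-26) and -3.35 ± 0.062 (adjusted p = 1.40e-26) at 3, 6 and 12 h of amino acid starvation, the lowest value among the 10 genes at 3 and 12 h. Without glucose it was at -1.35 ± 0.058 (adjusted p = 1.42e-17) at 3 h, 0.13 ± 0.056 (adjusted p = 0.0681) at 6 h and -0.20 ± 0.056 (adjusted p = 0.00369) at 12 h. The value at 6 h did not pass, but it did with the DESeq2 test (adjusted p = 0.0478) and with a stricter filter (adjusted p = 0.0268). Without control replicate 2 it was 0.16. It was -0.01 (adjusted p = 0.947) with library totals, so a rise at 6 h depended on the scaling.

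Scd1, the form best known from liver and fat, had 165 and 187 CPM in the control. In amino acid starvation the level was 127 and 125 CPM at 3 h, 109.9 and 104 CPM at 6 h, and 100.3 and 96.9 CPM at 12 h. Its libraries without glucose held 136 and 127 CPM at 3 h, 222 and 225 CPM at 6 h, and 215 and 215 CPM at 12 h. Scd1 was thus below both controls in every library without amino acids and at 3 h without glucose, and above both at 6 and 12 h without glucose. The fold changes in amino acid starvation were -0.48 ± 0.059 (adjusted p = 3.90e-08), -0.72 ± 0.059 (adjusted p = 9.28e-12) and -0.84 ± 0.059 (adjusted p = 3.03e-13) at 3, 6 and 12 h. In glucose starvation they were -0.42 ± 0.059 (adjusted p = 8.98e-07), 0.34 ± 0.058 (adjusted p = 1.52e-05) and 0.29 ± 0.058 (adjusted p = 1.11e-04). Scd1 and Scd2 have near copies among the Scd genes, so their reads are uncertain where the authors' counting could split them.

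Within a library, the ratio of the 2 forms per transcript length does not depend on library scaling. Scd2 over Scd1 stood at 5.59 and 5.18 in the control, and at 2.12 and 2.15, 0.987 and 1.05, and 0.909 and 0.981 at 3, 6 and 12 h of amino acid starvation. In glucose starvation the ratio was 2.93 and 2.73, 4.63 and 4.61, and 3.88 and 3.81. Per length, then, the control cells held mostly Scd2, and the cells at 6 and 12 h without amino acids held about equal levels of both.

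**Figure D2:**
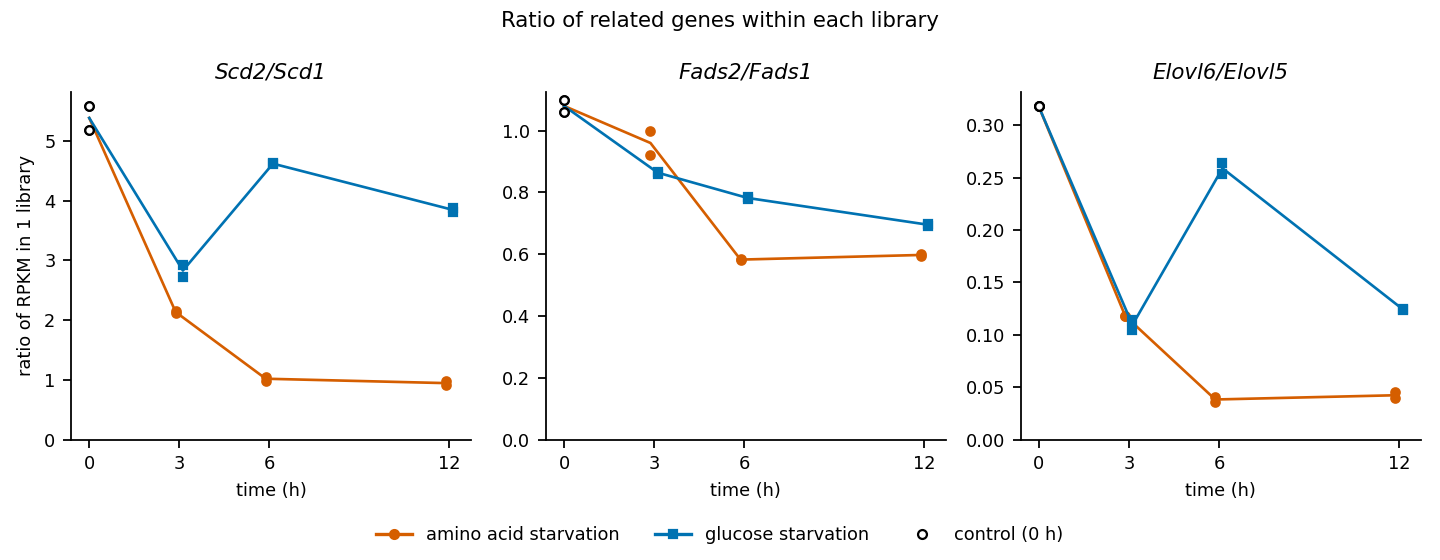
Ratio of RPKM (CPM per transcript length, so that genes can be compared) of Scd2 to Scd1, Fads2 to Fads1 and Elovl6 to Elovl5 within each library, against hours of starvation, with lines through the group means and open circles for the control. The Scd2 to Scd1 and Elovl6 to Elovl5 ratios fall with amino acid loss and stay low. With glucose loss both are low at 3 h and higher at 6 h, and Elovl6 to Elovl5 is low again at 12 h. The Fads2 to Fads1 ratio is below both controls in every starved library.

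The polyunsaturated fatty acid desaturases also differed in extent. Fads2, the delta-6 desaturase at the entry of the pathway, held 244 and 239 CPM in the control. Without amino acids it had 157 and 150.0 CPM at 3 h, 77.8 and 76.8 CPM at 6 h, and 88.3 and 87.9 CPM at 12 h. Without glucose it held 187 and 185 CPM at 3 h, 228 and 220.4 CPM at 6 h, and 241 and 244 CPM at 12 h. Its level was below both controls in every library without amino acids and again at 3 and 6 h without glucose, and overlapped the control range at 12 h without glucose. Fads2 was lower at -0.65 ± 0.052 (adjusted p = 6.02e-12), -1.64 ± 0.053 (adjusted p = 6.57e-21) and -1.45 ± 0.053 (adjusted p = 5.06e-20) at 3, 6 and 12 h of amino acid starvation and at -0.38 ± 0.051 (adjusted p = 6.40e-07) at 3 h of glucose starvation. At 6 and 12 h without glucose its values of -0.11 ± 0.051 (adjusted p = 0.0936) and 0.01 ± 0.051 (adjusted p = 0.933) did not pass.

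Fads1, the delta-5 desaturase that acts later in the same pathway, had 243 and 248 CPM in the control. The libraries of amino acid starvation held 173 and 179 CPM at 3 h, 147 and 145 CPM at 6 h, and 162 and 162 CPM at 12 h. With glucose loss its level was 238 and 235 CPM at 3 h, 319 and 311 CPM at 6 h, and 382 and 383 CPM at 12 h. No library of amino acid starvation reached the controls, and all 4 at 6 and 12 h of glucose starvation exceeded them. The fold changes were -0.48 ± 0.051 (adjusted p = 2.06e-09), -0.75 ± 0.051 (adjusted p = 1.27e-13) and -0.60 ± 0.051 (adjusted p = 1.38e-11) at 3, 6 and 12 h without amino acids, and -0.06 ± 0.051 (adjusted p = 0.397), 0.36 ± 0.05 (adjusted p = 8.36e-07) and 0.64 ± 0.05 (adjusted p = 5.88e-12) without glucose. Per length, Fads2 over Fads1 was 1.10 and 1.06 in the control, and 0.999 and 0.921, 0.582 and 0.583, and 0.600 and 0.595 at 3, 6 and 12 h of amino acid starvation. In glucose starvation it was 0.861 and 0.867, 0.785 and 0.779, and 0.692 and 0.699. The ratio was below both controls in all of these. At 6 and 12 h of glucose starvation Fads1 was called higher and Fads2 was not called.

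Among the elongases, Elovl6 had the widest range. It held 72.2 and 77.7 CPM in the control. After amino acid loss the values were 27.5 and 28.1 CPM at 3 h, 7.18 and 7.78 CPM at 6 h, and 7.93 and 7.51 CPM at 12 h. In glucose starvation its level was 30.5 and 28.4 CPM at 3 h, 71.4 and 76.8 CPM at 6 h, and 32.4 and 30.5 CPM at 12 h. The libraries at 3 h of either starvation stood at about the same level, after which those without amino acids were lower still, while those without glucose were at the control's level at 6 h and low again at 12 h. Its log2 fold changes were -1.43 ± 0.075 (adjusted p = 6.19e-16), -3.32 ± 0.085 (adjusted p = 2.13e-23) and -3.28 ± 0.084 (adjusted p = 1.27e-23) at 3, 6 and 12 h without amino acids. Without glucose it was at -1.35 ± 0.076 (adjusted p = 7.71e-15), -0.02 ± 0.072 (adjusted p = 0.873) and -1.25 ± 0.074 (adjusted p = 1.07e-14). Its lowest counts, at 6 and 12 h of amino acid starvation, were 304 and 429 reads and 390 and 398 reads, against 3312 and 3549 reads in the control libraries.

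Elovl5 had the narrowest range of the elongases. It had 106 and 114 CPM in the control. In amino acid starvation the level was 109 and 112 CPM at 3 h, 92.7 and 90.3 CPM at 6 h, and 81.9 and 89.2 CPM at 12 h. Its libraries without glucose held 125 and 126 CPM at 3 h, 131 and 136 CPM at 6 h, and 121 and 115 CPM at 12 h. At 3 h without amino acids the libraries lay within the control range, and from 6 h on they were below it. Elovl5 was at 0.00 ± 0.058 (adjusted p = 0.963), -0.27 ± 0.058 (adjusted p = 1.84e-04) and -0.36 ± 0.058 (adjusted p = 2.67e-06) at 3, 6 and 12 h of amino acid starvation. It was higher by 0.19 ± 0.058 (adjusted p = 0.00882) at 3 h and 0.28 ± 0.058 (adjusted p = 1.98e-04) at 6 h of glucose starvation, with 0.10 ± 0.058 (adjusted p = 0.149) at 12 h. The call at 3 h did not pass without control replicate 1 (0.13, adjusted p = 0.126). Per length, Elovl6 over Elovl5 was 0.318 and 0.318 in the control, and 0.118 and 0.118, 0.0362 and 0.0403, and 0.0452 and 0.0394 at 3, 6 and 12 h of amino acid starvation. At 3, 6 and 12 h of glucose starvation it was 0.114 and 0.105, 0.254 and 0.264, and 0.125 and 0.124.

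Elovl1 declined at each time without amino acids. It held 73.1 and 65.2 CPM in the control. Without amino acids it had 57.4 and 55.8 CPM at 3 h, 42.1 and 41.5 CPM at 6 h, and 30.8 and 26.3 CPM at 12 h. In glucose starvation it held 68.3 and 76.4 CPM at 3 h, 87.1 and 83.9 CPM at 6 h, and 72.8 and 75.8 CPM at 12 h. All libraries without amino acids were below both controls, and at 6 h without glucose both were above them. Its fold changes were -0.29 ± 0.073 (adjusted p = 0.00124), -0.73 ± 0.074 (adjusted p = 8.49e-10) and -1.28 ± 0.076 (adjusted p = 5.47e-15) at 3, 6 and 12 h without amino acids. At 6 h without glucose Elovl1 was higher by 0.31 ± 0.073 (adjusted p = 8.63e-04), and at 3 and 12 h its values of 0.07 ± 0.073 (adjusted p = 0.5) and 0.10 ± 0.073 (adjusted p = 0.228) did not pass. Elovl1 overlaps Cdc20, an activator of mitosis, on the opposite strand, and whether counting used strand is not stated, so their reads cannot be told apart where they overlap. Cdc20 held 157 and 158 CPM at 12 h of amino acid starvation, 48.0 and 50.2 CPM at 12 h of glucose starvation and 143 and 136 CPM in the control.

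**Figure D3:**
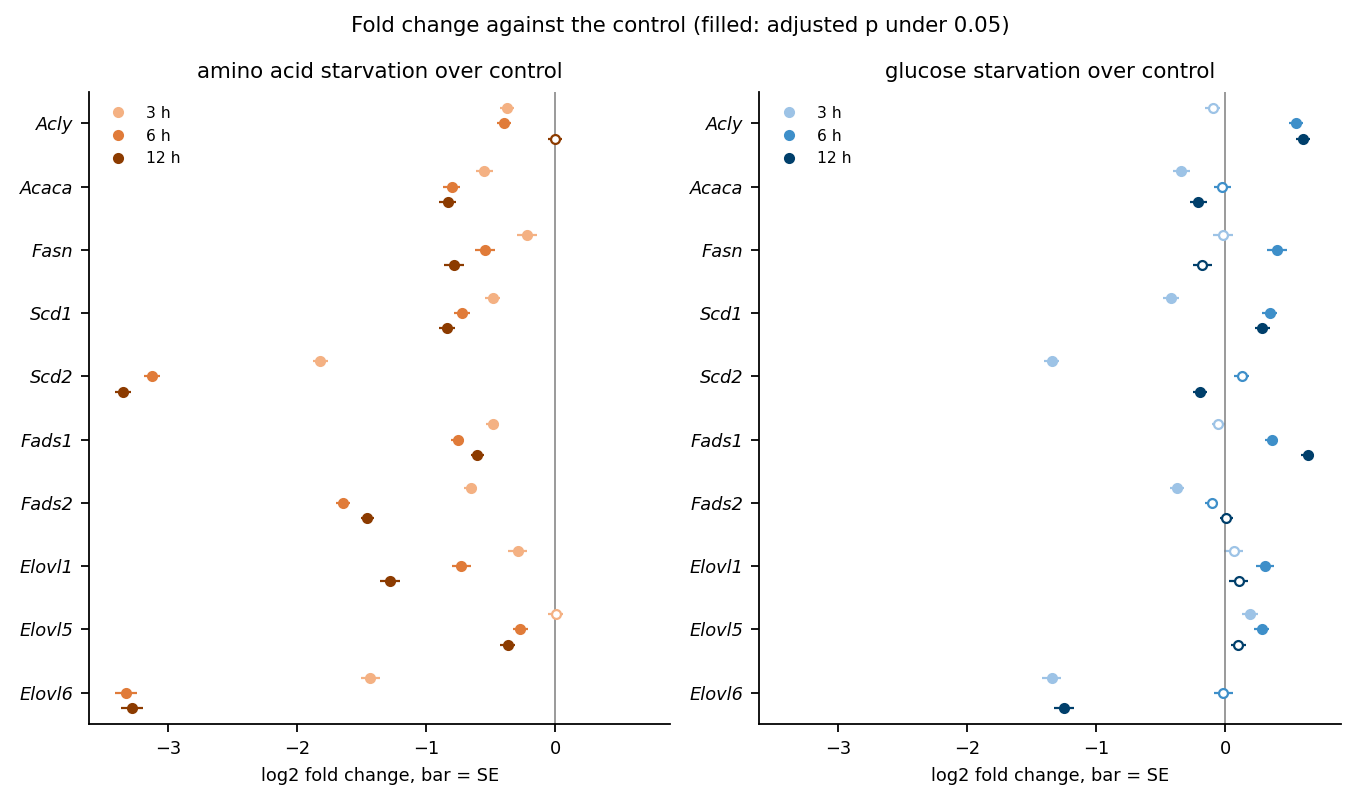
Log2 fold change against the control of each gene at 3, 6 and 12 h of amino acid starvation (left) and of glucose starvation (right), with bars for the SE and filled points for an adjusted p under 0.05. On the left all points but Elovl5 at 3 h and Acly at 12 h are filled and lie below 0, down to -3.35 for Scd2, while on the right points lie on both sides of 0 with Elovl6 and Scd2 lowest.

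Set directly against each other at the same time, the gap between the starvations was small at 3 h and wide from 6 h on. At 3 h 8 of the 10 genes were lower without amino acids than without glucose, where 27.7% of all genes were lower and 26.7% higher. At 6 h all 10 were lower, against 32.3% lower and 31.5% higher among all genes, and at 12 h all 10 were lower, against 31.6% and 32.5%. The median log2 fold change, amino acid over glucose starvation, was -0.24, -1.05 and -1.18 at 3, 6 and 12 h, where that of all genes was -0.03, -0.01 and 0.03. At 12 h 65.5% of the called genes were higher with library totals, against 50.8% with TMM, and the median of all genes moved to 0.27, while the 10 members were all still called lower.

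At 3 h Scd2 held 304 and 302 CPM without amino acids and 449 and 392 CPM without glucose, a difference of -0.47 ± 0.057 (adjusted p = 5.12e-08). The difference was -0.43 ± 0.051 (adjusted p = 3.46e-08) for Fads1, -0.35 ± 0.074 (adjusted p = 1.85e-04) for Elovl1, -0.28 ± 0.052 (adjusted p = 4.43e-05) for Fads2 and -0.27 ± 0.056 (adjusted p = 1.47e-04) for Acly. Elovl6 and Scd1, which were lower than the control under both starvations at 3 h, did not pass between them, with -0.08 ± 0.078 (adjusted p = 0.383) and -0.06 ± 0.06 (adjusted p = 0.412). Calls of 3 genes at 3 h were lost in fits that left out 1 library, and so left 1 library in a group. Elovl5 (-0.19 ± 0.058, adjusted p = 0.008) did not pass without amino acid starvation 3 h replicate 1 (-0.17, adjusted p = 0.0715). Acaca (-0.21 ± 0.067, adjusted p = 0.0105) did not pass without amino acid starvation 3 h replicate 2 (-0.18, adjusted p = 0.0911) or without glucose starvation 3 h replicate 1 (-0.08, adjusted p = 0.332). Fasn (-0.20 ± 0.077, adjusted p = 0.0385) did not pass without amino acid starvation 3 h replicate 2 (-0.15, adjusted p = 0.228) or without glucose starvation 3 h replicate 1 (-0.11, adjusted p = 0.347).

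At 6 h the gap was widest for Elovl6, with -3.30 ± 0.085 (adjusted p = 4.25e-23), and Scd2, with -3.25 ± 0.062 (adjusted p = 9.87e-26). Fads2 followed with -1.54 ± 0.053 (adjusted p = 4.53e-20). The other 7 genes lay between -1.11 (Fads1) and -0.55 (Elovl5). In no gene did the libraries of the 2 starvations overlap at 6 or 12 h. How many of all genes separate in this way was not counted, so the separation does not set these genes apart. At 12 h Scd2 was at -3.15 ± 0.062 (adjusted p = 6.89e-26), while the gap of Elovl6, whose level was low again without glucose, was -2.03 ± 0.085 (adjusted p = 2.26e-18). Fads2, Elovl1, Fads1 and Scd1 were at -1.46, -1.38, -1.24 and -1.12, and Acaca, Acly, Fasn and Elovl5 at -0.62, -0.60, -0.60 and -0.46.

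**Figure D4:**
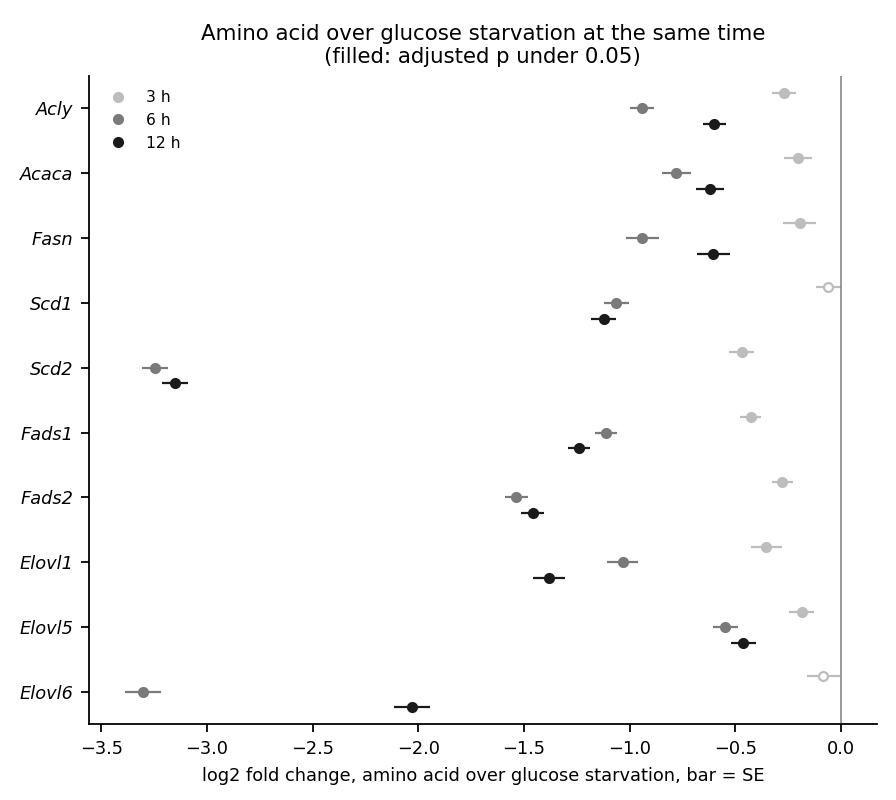
Log2 fold change of amino acid over glucose starvation for each gene at 3, 6 and 12 h, with bars for the SE and filled points for an adjusted p under 0.05. At 3 h all points lie below 0, down to -0.47 for Scd2, and 8 of the 10 are filled. At 6 and 12 h all are filled and lie further below 0, furthest for Scd2 and Elovl6.

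Steps in time do not compare with the control libraries, which still enter the scaling and the spread of the shared fit. Between 3 and 6 h of amino acid starvation 9 genes were lower at the later time and Acly did not pass (-0.03 ± 0.056, adjusted p = 0.722), where 25.4% of all genes were lower and 24.7% higher. The steps were -1.89 ± 0.086 (adjusted p = 8.48e-17) for Elovl6, -1.30 ± 0.059 (adjusted p = 6.10e-17) for Scd2 and -0.99 ± 0.053 (adjusted p = 3.11e-15) for Fads2, and the other 6 called genes lay between -0.44 (Elovl1) and -0.24 (Scd1). For this step 60.6% of the called genes were higher with library totals, against 49.3% with TMM, and Acaca at -0.16 (adjusted p = 0.0574) and Scd1 at -0.14 (adjusted p = 0.0571) were then not called. Between 6 and 12 h 3 genes were higher and 3 lower, shares near those of all genes. Acly (0.40 ± 0.055, adjusted p = 4.62e-07), Fads2 (0.19 ± 0.053, adjusted p = 0.00344) and Fads1 (0.15 ± 0.051, adjusted p = 0.0122) were higher at 12 h, and Elovl1 (-0.55 ± 0.076, adjusted p = 4.45e-07), Fasn (-0.24 ± 0.078, adjusted p = 0.0124) and Scd2 (-0.23 ± 0.059, adjusted p = 0.00162) were lower, where 27.8% of all genes were higher and 27.1% lower. With RLE size factors Fads1 (0.10, adjusted p = 0.0991) was not called, and Scd1 (-0.17, adjusted p = 0.0178) and Elovl5 (-0.15, adjusted p = 0.032) were called lower.

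Several of those late calls were not stable. Fads1 did not pass without any 1 of the 4 libraries compared: amino acid starvation 6 h replicate 1 (adjusted p = 0.0535) or 2 (0.106), and 12 h replicate 1 (0.0795) or 2 (0.091). Fasn did not pass without amino acid starvation 6 h replicate 1 (-0.21, adjusted p = 0.0793) or 12 h replicate 2 (-0.16, adjusted p = 0.149). For the step from 6 to 12 h 69.3% of the called genes were higher with library totals, against 50.6% with TMM, and the median of all genes moved to 0.22. Scd2 was then at -0.02 (adjusted p = 0.842) and Fasn at -0.03 (adjusted p = 0.799), both no longer called, while Elovl1 stayed lower at -0.34 (adjusted p = 3.95e-04), Acaca was called higher at 0.18 (adjusted p = 0.0229), against -0.03 with TMM, and Elovl6 was called higher at 0.25 (adjusted p = 0.0224).

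Between 3 and 6 h of glucose starvation 9 of the 10 genes were higher at the later time and Elovl5 did not pass (0.09 ± 0.058, adjusted p = 0.255), where 17.8% of all genes were higher and 15.5% lower. Scd2 rose by 1.47 ± 0.058 (adjusted p = 1.22e-17), Elovl6 by 1.33 ± 0.076 (adjusted p = 4.57e-14), Scd1 by 0.77 ± 0.059 (adjusted p = 2.93e-11) and Acly by 0.65 ± 0.056 (adjusted p = 2.56e-10). Fads1, Fasn, Acaca and Fads2 rose by 0.41, 0.42, 0.32 and 0.27. The rise of Elovl1, 0.24 ± 0.073 (adjusted p = 0.0114), did not pass without glucose starvation 3 h replicate 1 (0.16, adjusted p = 0.158) or 6 h replicate 1 (0.22, adjusted p = 0.0863). From 6 to 12 h of glucose starvation 6 genes were lower and Fads1 was higher, by 0.28 ± 0.05 (adjusted p = 2.97e-05), where 21.9% of all genes were lower and 25.6% higher. Elovl6 fell furthest, to a log2 fold change of -1.23 ± 0.075 (adjusted p = 4.17e-14), then Fasn with -0.58 ± 0.077 (adjusted p = 2.40e-06) and Scd2 with -0.32 ± 0.056 (adjusted p = 2.32e-05). Without glucose starvation 6 h replicate 2, 4 of the 10 genes were called for this step in place of 7.

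The other 3 calls of that step were lost in fits that left out 1 library, and so left 1 library in a group. Elovl1 (-0.20 ± 0.073, adjusted p = 0.0219) did not pass without glucose starvation 6 h replicate 1 (-0.18), 6 h replicate 2 (-0.23) or 12 h replicate 1 (-0.18). Acaca (-0.19 ± 0.066, adjusted p = 0.0208) did not pass without glucose starvation 6 h replicate 1 (-0.19), 6 h replicate 2 (-0.18) or 12 h replicate 2 (-0.13). Elovl5 (-0.18 ± 0.058, adjusted p = 0.0106) did not pass without glucose starvation 6 h replicate 2 (-0.15) or 12 h replicate 2 (-0.14).

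Per length, the order of the genes changed with the starvation. The 10 genes summed to 609.9 and 608 RPKM in the control, 370.2 and 365, 270.0 and 263, and 274 and 265 RPKM at 3, 6 and 12 h of amino acid starvation, and 463 and 440.3, 719.7 and 712, and 658 and 651 RPKM at 3, 6 and 12 h of glucose starvation. In the control Scd2 led with 191 and 201 RPKM, followed by Fads2 (77.3 and 75.8) and Fads1 (70.3 and 71.8). Acly (66.5 and 61.6) and Fasn (61.9 and 51.9) overlapped, as did Elovl5, Elovl1 and Scd1 among themselves, and Acaca (17.9 and 17.3) and Elovl6 (12.1 and 13.1) came last. At 12 h of amino acid starvation Acly led with 66.1 and 62.1 RPKM, then Fads1 with 46.7 and 46.9 RPKM, and Scd2, at 18.9 and 19.7 RPKM, ranked among the lower genes beside Scd1 at 20.8 and 20.1 RPKM. Elovl6 was last with 1.33 and 1.26 RPKM. At 12 h of glucose starvation Scd2 led again, with 173 and 169 RPKM, before Fads1 (110.5 and 111) and Acly (97.2 and 97.1), and Elovl6 was last (5.44 and 5.13). Lengths were those of the counted transcripts, so an unlike mix of transcripts would change these levels.

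Of 15 further genes of fatty acid synthesis, which carry citrate, supply NADPH, activate fatty acids or run the mitochondrial synthesis route, 14 were tested. Without amino acids 3 were higher and 6 lower at 3 h, 3 and 6 at 6 h, and 4 and 6 at 12 h, where 27.9% and 32.1%, 32.3% and 33.3%, and 34.9% and 32% of all genes were. The medians were -0.35, -0.36 and 0.01. Without glucose 3 were higher and 4 lower at 3 h, 5 and 2 at 6 h, and 6 and 3 at 12 h, where 20.3% and 23.1%, 23.3% and 24.2%, and 30.4% and 28% of all genes were. The medians were 0.00, 0.05 and 0.03. Slc25a1, the mitochondrial citrate carrier that feeds Acly, held 14.9 and 13.5 CPM at 12 h of amino acid starvation, 59.3 and 65.0 CPM at 12 h of glucose starvation and 38.9 and 34.7 CPM in the control. Its fold changes were -0.63, -1.41 and -1.37 at 3, 6 and 12 h without amino acids and 0.09, 0.48 and 0.75 without glucose (SE of at most 0.085). Slc25a1 did not pass at 3 h of glucose starvation (adjusted p = 0.421), and its other adjusted p-values were at most 1.03e-05. The acyl-CoA synthetase Acsl5 was at -0.40, -0.89 and -1.84 at 3, 6 and 12 h without amino acids and 0.10, -0.01 and -0.25 without glucose (SE of at most 0.058). Acsl5 did not pass at 3 and 6 h of glucose starvation (adjusted p = 0.171 and 0.877), and its other adjusted p-values were at most 3.23e-04. At 6 h of glucose starvation Acsl5 was called lower with library totals (-0.14, adjusted p = 0.03). Malic enzyme Me1, a source of NADPH, was at 0.38, -0.02 and -0.75 at 3, 6 and 12 h without amino acids and 0.32, 0.10 and 0.08 without glucose (SE of at most 0.061). Me1 did not pass at 6 h of amino acid starvation (adjusted p = 0.782) and 6 and 12 h of glucose starvation (adjusted p = 0.185 and 0.253), and its other adjusted p-values were at most 7.39e-05. Me1 was higher at 3 h of both starvations and lower at 12 h without amino acids.

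Mid1ip1, which promotes the polymerisation of acetyl-CoA carboxylase, was higher in 5 of the 6 starved groups and lower at 12 h without amino acids. Mid1ip1 was at 1.32, 0.75 and -0.30 at 3, 6 and 12 h without amino acids and 0.60, 0.89 and 0.61 without glucose (SE of at most 0.079, adjusted p of at most 0.00134). Mid1ip1 lost its call at 12 h of amino acid starvation with library totals (-0.17). The mitochondrial synthesis enzyme Mcat was at -1.92, -0.86 and -0.28 at 3, 6 and 12 h without amino acids and -0.63, 0.01 and -0.69 without glucose (SE of at most 0.12). Mcat did not pass at 6 h of glucose starvation (adjusted p = 0.951), and its other adjusted p-values were at most 0.0161. Mcat lost its call at 12 h of amino acid starvation without control replicate 1 (-0.19) and with library totals (-0.15). Oxsm, another enzyme of that route, was at -1.66, -1.20 and 0.03 at 3, 6 and 12 h without amino acids and -0.45, -0.29 and -0.33 without glucose (SE of at most 0.17). Oxsm did not pass at 12 h of amino acid starvation (adjusted p = 0.864). Nor did it at 6 and 12 h of glucose starvation (adjusted p = 0.125 and 0.0653). Its other adjusted p-values were at most 0.0204. With library totals Oxsm was called lower at 6 h (-0.42, adjusted p = 0.0228) and 12 h (-0.43, adjusted p = 0.0151) of glucose starvation. At 12 h it was also called lower with the second transcript (adjusted p = 0.0112) and with only the groups compared (0.0294). Oxsm lost its call at 3 h of glucose starvation without control replicate 1 (-0.46), without control replicate 2 (-0.45) and without glucose starvation 3 h replicate 1 (-0.33).

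Among further acyl-CoA synthetases, Acsl3 was at -0.05, -0.01 and 0.15 at 3, 6 and 12 h without amino acids and 0.03, 0.63 and 0.52 without glucose (SE of at most 0.067). Acsl3 did not pass at 3 and 6 h of amino acid starvation (adjusted p = 0.514 and 0.877). Nor did it at 3 h of glucose starvation (adjusted p = 0.789). Its other adjusted p-values were at most 0.045. At 3 h of amino acid starvation Acsl3 was called lower with library totals (-0.23, adjusted p = 0.00333). Acsl3 lost its call at 12 h of amino acid starvation without control replicate 1 (0.08), without amino acid starvation 12 h replicate 1 (0.16), without amino acid starvation 12 h replicate 2 (0.05) and in 4 alternatives with all libraries (0.10 to 0.13). Acsl1 was lower at most times of both starvations, with -0.47, -0.78 and -0.19 at 3, 6 and 12 h without amino acids and -0.29, -0.53 and -0.03 without glucose (SE of at most 0.08). Acsl1 did not pass at 12 h of glucose starvation (adjusted p = 0.78), and its other adjusted p-values were at most 0.0319. Acsl1 lost its call at 12 h of amino acid starvation without control replicate 2 (-0.10), without amino acid starvation 12 h replicate 1 (-0.19), with library totals (-0.06) and with a stricter filter (-0.15), and at 3 h of glucose starvation without control replicate 2 (-0.20) and without glucose starvation 3 h replicate 2 (-0.21).

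Of 16 other genes of elongation and desaturation, 15 were tested. In amino acid starvation 5 were higher and 8 lower at 3 h, 5 and 7 at 6 h, and 3 and 10 at 12 h, where 27.9% and 32.1%, 32.3% and 33.3%, and 34.9% and 32% of all genes were. The medians were -0.24, -0.19 and -0.33. In glucose starvation 6 were higher and 4 lower at 3 h, 8 and 3 at 6 h, and 10 and 2 at 12 h, where 20.3% and 23.1%, 23.3% and 24.2%, and 30.4% and 28% of all genes were. The medians were 0.05, 0.22 and 0.41. Fads3, a further gene of the Fads family, was higher in 5 of the 6 starved groups and lower at 12 h without amino acids. It held 551 and 535 CPM at 3 h and 225 and 221 CPM at 12 h of amino acid starvation, and 291 and 247 CPM in the control. Fads3 was at 1.02, 0.83 and -0.27 at 3, 6 and 12 h without amino acids and 0.37, 0.75 and 0.75 without glucose (SE of at most 0.06, adjusted p of at most 2.43e-04). The elongase Elovl4 was higher in all 6 starved groups, with 0.39, 0.86 and 1.33 at 3, 6 and 12 h without amino acids and 0.75, 0.69 and 0.88 without glucose (SE of at most 0.082, adjusted p of at most 1.34e-04).

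Hsd17b12, the ketoacyl reductase of the elongation cycle, and the dehydratase Hacd1 were both higher in 5 of the 6 starved groups and lower at 12 h without amino acids. Hsd17b12 was at 0.39, 0.36 and -0.33 at 3, 6 and 12 h without amino acids and 0.53, 0.75 and 0.92 without glucose (SE of at most 0.056, adjusted p of at most 6.44e-06). Hacd1 was at 0.92, 0.38 and -1.26 at 3, 6 and 12 h without amino acids and 1.11, 1.02 and 0.72 without glucose (SE of at most 0.1, adjusted p of at most 8.70e-04). Another dehydratase, Hacd3, was at -0.98, -0.95 and -0.10 at 3, 6 and 12 h without amino acids and -0.17, -0.02 and 0.39 without glucose (SE of at most 0.064). Hacd3 did not pass at 12 h of amino acid starvation (adjusted p = 0.139) and 6 h of glucose starvation (adjusted p = 0.848). Its other adjusted p-values were at most 0.027. At 6 h of glucose starvation Hacd3 was called lower with library totals (-0.15, adjusted p = 0.045). Hacd3 lost its call at 3 h of glucose starvation without control replicate 2 (-0.12), without glucose starvation 3 h replicate 1 (-0.18), without glucose starvation 3 h replicate 2 (-0.17) and in 4 alternatives with all libraries (-0.14 to -0.15).

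Cyb5a, which carries electrons to the desaturases, held 4.17 and 3.21 CPM at 12 h of amino acid starvation, 9.10 and 8.63 CPM at 12 h of glucose starvation and 16.5 and 19.6 CPM in the control. It was lower under both starvations, with -0.89, -1.88 and -2.29 at 3, 6 and 12 h without amino acids and -0.22, -0.57 and -1.02 without glucose (SE of at most 0.13). Cyb5a did not pass at 3 h of glucose starvation (adjusted p = 0.148), and its other adjusted p-values were at most 2.60e-04. That 3 h value was called lower with library totals (-0.39, adjusted p = 0.00904). Its reductase Cyb5r3 was at -0.06, -0.37 and -0.96 at 3, 6 and 12 h without amino acids and 0.28, 0.22 and 0.11 without glucose (SE of at most 0.053). Cyb5r3 did not pass at 3 h of amino acid starvation (adjusted p = 0.327) and 12 h of glucose starvation (adjusted p = 0.0882). Its other adjusted p-values were at most 0.00104. At 3 h of amino acid starvation Cyb5r3 was called lower with library totals (-0.24, adjusted p = 2.81e-04). Cyb5r3 lost its call at 3 h of glucose starvation with library totals (0.11), and at 6 h of glucose starvation with library totals (0.09). Elovl3 was near the limit of detection in the control, with 8 and 6 reads, and held 84 and 92 reads at 3 h of amino acid starvation and 238 and 180 reads at 12 h of glucose starvation. The fold changes of Elovl3 were 3.79, 4.73 and 4.89 at 3, 6 and 12 h without amino acids and 3.04, 4.07 and 4.88 without glucose (SE of at most 0.42, adjusted p of at most 8.43e-07).

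Of 24 genes known to control the set, 23 were tested. Under amino acid starvation 3 were higher and 10 lower at 3 h, 8 and 9 at 6 h, and 10 and 10 at 12 h, where 27.9% and 32.1%, 32.3% and 33.3%, and 34.9% and 32% of all genes were. The medians were -0.13, -0.05 and -0.01. Under glucose starvation 3 were higher and 6 lower at 3 h, 8 and 7 at 6 h, and 8 and 9 at 12 h, where 20.3% and 23.1%, 23.3% and 24.2%, and 30.4% and 28% of all genes were. The medians were -0.02, 0.13 and 0.06. Srebf1 held 113 and 96.8 CPM in the control. The libraries of amino acid starvation held 64.9 and 68.0 CPM at 3 h, 56.3 and 50.6 CPM at 6 h, and 55.3 and 48.7 CPM at 12 h. All 6 values were below both controls, with fold changes of -0.66 ± 0.078 (adjusted p = 4.66e-08), -0.97 ± 0.079 (adjusted p = 2.26e-11) and -1.01 ± 0.079 (adjusted p = 9.00e-12). In glucose starvation Srebf1 was at -0.22 ± 0.078 (adjusted p = 0.0221), -0.24 ± 0.077 (adjusted p = 0.0129) and -0.05 ± 0.077 (adjusted p = 0.618). Both calls there were lost without control replicate 1 (-0.11, adjusted p = 0.338 at 3 h and -0.12, adjusted p = 0.267 at 6 h), that at 3 h without glucose starvation 3 h replicate 1 (-0.18, adjusted p = 0.153) and with DESeq2 (adjusted p = 0.0684), and that at 6 h without glucose starvation 6 h replicate 2 (-0.14, adjusted p = 0.25). Srebf2, the form tied mostly to cholesterol, was at -0.11 ± 0.06 (adjusted p = 0.126), -0.90 ± 0.061 (adjusted p = 1.33e-13) and -1.26 ± 0.061 (adjusted p = 5.01e-17) without amino acids, where the first did not pass. That first value was called lower with library totals (-0.28, adjusted p = 1.86e-04) and without control replicate 2 (-0.19). Without glucose Srebf2 was at 0.00 ± 0.06 (adjusted p = 0.996), 0.32 ± 0.06 (adjusted p = 5.06e-05) and 0.03 ± 0.06 (adjusted p = 0.65), higher at 6 h. At 3 h without glucose it was called lower with library totals (-0.17, adjusted p = 0.0232).

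Insig1 is itself a target of the sterol regulatory element-binding proteins. Insig1 held 43.0 and 45.5 CPM in the control. After amino acid loss the values were 37.7 and 39.1 CPM at 3 h, 29.8 and 30.1 CPM at 6 h, and 32.4 and 34.5 CPM at 12 h. Without glucose it held 82.8 and 83.9 CPM at 3 h, 142 and 142 CPM at 6 h, and 80.7 and 77.3 CPM at 12 h. These levels were above both controls throughout and highest at 6 h. Of the 10 fatty acid genes, 1 was higher and 5 lower at 3 h of glucose starvation, 6 and 0 at 6 h, and 3 and 3 at 12 h. The fold changes of Insig1 were 0.91 ± 0.062 (adjusted p = 5.49e-13), 1.68 ± 0.062 (adjusted p = 4.22e-19) and 0.84 ± 0.061 (adjusted p = 1.29e-12) without glucose and -0.20 ± 0.063 (adjusted p = 0.00653), -0.56 ± 0.064 (adjusted p = 6.47e-09) and -0.40 ± 0.063 (adjusted p = 1.80e-06) without amino acids. The call at 3 h without amino acids was lost without control replicate 2 (-0.16, adjusted p = 0.064) and without amino acid starvation 3 h replicate 1 (-0.18, adjusted p = 0.0681).

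**Figure D5:**
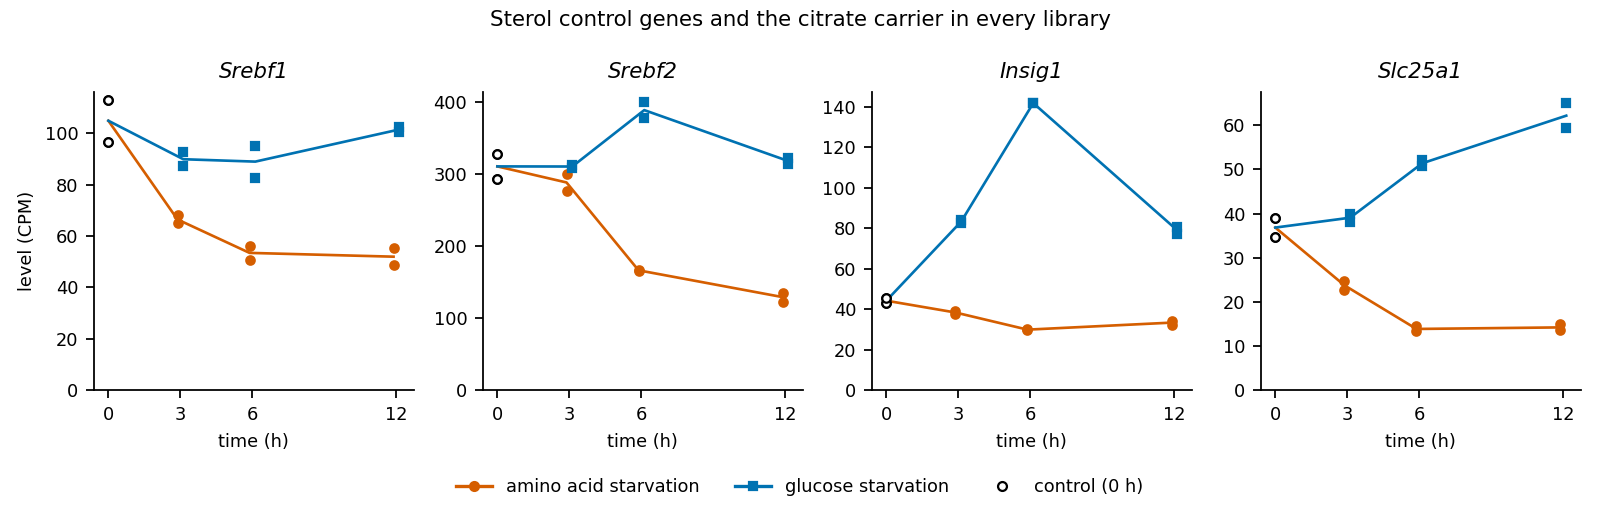
Level in CPM (linear axis from 0) of Srebf1, Srebf2, Insig1 and Slc25a1 against hours of starvation, one point per library, with lines through the group means and open circles for the control. All 4 are low at 6 and 12 h without amino acids, and Insig1 and Srebf2 peak at 6 h without glucose.

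Directly compared at 6 h, amino acid over glucose starvation, Insig1 was at -2.24 ± 0.064 (adjusted p = 3.91e-22), Srebf2 at -1.22 ± 0.061 (adjusted p = 1.84e-16), Srebf1 at -0.74 ± 0.079 (adjusted p = 6.29e-09) and Slc25a1 at -1.89 ± 0.085 (adjusted p = 1.90e-17). Rxrb, a retinoid X receptor, was at 0.82, 1.22 and 1.21 at 3, 6 and 12 h without amino acids and 0.14, 0.18 and 0.36 without glucose (SE of at most 0.067). Rxrb did not pass at 3 h of glucose starvation (adjusted p = 0.0927), and its other adjusted p-values were at most 0.0222. That 3 h value was called higher with RLE size factors (adjusted p = 0.0381), a stricter filter (0.0376) and DESeq2 (0.0422). Rxrb lost its call at 6 h of glucose starvation without control replicate 2 (0.14), without glucose starvation 6 h replicate 1 (0.18), without glucose starvation 6 h replicate 2 (0.19) and with library totals (0.05). Rxra was lower in all 6 starved groups, with -0.93, -1.12 and -0.43 at 3, 6 and 12 h without amino acids and -0.68, -0.94 and -1.21 without glucose (SE of at most 0.076, adjusted p of at most 7.90e-06).

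Sp1, the GC box factor, was higher without amino acids and lower at 6 and 12 h without glucose. Sp1 was at 0.71, 0.91 and 0.50 at 3, 6 and 12 h without amino acids and -0.15, -0.23 and -0.49 without glucose (SE of at most 0.062). Sp1 did not pass at 3 h of glucose starvation (adjusted p = 0.0573), and its other adjusted p-values were at most 0.0032. That 3 h value was called lower with library totals (-0.31, adjusted p = 1.44e-04) and with a block for the replicate number (-0.15, adjusted p = 0.0408). Sp1 lost its call at 6 h of glucose starvation without control replicate 2 (-0.13). Nfya, a subunit of the CCAAT box factor, was likewise higher at 6 and 12 h without amino acids and lower without glucose, with -0.13, 0.21 and 0.31 at 3, 6 and 12 h without amino acids and -0.26, -0.21 and -0.70 without glucose (SE of at most 0.06). Nfya did not pass at 3 h of amino acid starvation (adjusted p = 0.0649), and its other adjusted p-values were at most 0.00404. That 3 h value was called lower with library totals (-0.30, adjusted p = 4.71e-05) and with a block for the replicate number (-0.13, adjusted p = 0.0494). Nfya lost its call at 6 h of amino acid starvation without control replicate 2 (0.15), and at 6 h of glucose starvation without control replicate 1 (-0.15). Nr1h3 had 186 and 176 reads at 12 h of amino acid starvation and 5 and 3 reads in the control (5.30 ± 0.54, adjusted p = 7.06e-10), a fold change that rests on very few control reads. The fold changes of Nr1h3 were 0.95, 2.88 and 5.30 at 3, 6 and 12 h without amino acids and -0.54, 1.27 and 1.66 without glucose (SE of at most 0.98). Nr1h3 did not pass at 3 h of amino acid starvation (adjusted p = 0.289) and 3 and 6 h of glucose starvation (adjusted p = 0.691 and 0.162), and its other adjusted p-values were at most 0.0366. Its call at 12 h of glucose starvation (1.66 ± 0.68, adjusted p = 0.0366) was lost without any 1 of the 4 libraries, with adjusted p-values from 0.0603 (without glucose starvation 12 h replicate 2) to 0.173 (without control replicate 2).

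Mlxipl, the gene of ChREBP, had too few reads to test. Mlxip, the gene of its relative MondoA, was at 0.02 ± 0.077 (adjusted p = 0.882), 0.59 ± 0.076 (adjusted p = 5.89e-08) and 0.58 ± 0.075 (adjusted p = 8.56e-08) at 3, 6 and 12 h without amino acids, the last 2 of these called higher. Without glucose Mlxip was at 0.06 ± 0.077 (adjusted p = 0.569), 0.17 ± 0.077 (adjusted p = 0.0698) and 0.21 ± 0.076 (adjusted p = 0.0202). The call at 12 h was lost with library totals (0.10, adjusted p = 0.26) and with the second transcript (0.09, adjusted p = 0.553). That call was also lost without control replicate 2 (0.12) and without glucose starvation 12 h replicate 1 (0.22) or 2 (0.20). At 6 h Mlxip was called higher with no filter (adjusted p = 0.0409), with a stricter filter (adjusted p = 0.0387) and with a block for the replicate number (adjusted p = 0.0401). Without control replicate 1 its value at 6 h was 0.26. Pparg, the fat cell regulator, held 5.81 and 4.22 CPM at 3 h of glucose starvation and 1.26 and 1.36 CPM in the control. Its fold changes were 0.08, -1.38 and -1.88 at 3, 6 and 12 h without amino acids and 1.93, 1.38 and 0.44 without glucose (SE of at most 0.35). Pparg did not pass at 3 h of amino acid starvation (adjusted p = 0.832) and 12 h of glucose starvation (adjusted p = 0.201), and its other adjusted p-values were at most 6.90e-04. Fat cell markers summed to 8.18 to 10.99 CPM at 3 h of glucose starvation, 2.45 to 2.99 CPM at 12 h of amino acid starvation and 3.92 to 4.69 CPM in the control, and their part in these changes was not tested.

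Downstream, 15 genes that place fatty acids into glycerolipids or coat lipid droplets were all tested. After amino acid loss 4 were higher and 11 lower at 3 h, 3 and 10 at 6 h, and 3 and 7 at 12 h, where 27.9% and 32.1%, 32.3% and 33.3%, and 34.9% and 32% of all genes were. The medians were -0.47, -0.28 and -0.12. After glucose loss 2 were higher and 6 lower at 3 h, 5 and 5 at 6 h, and 4 and 5 at 12 h, where 20.3% and 23.1%, 23.3% and 24.2%, and 30.4% and 28% of all genes were. The medians were 0.05, -0.04 and -0.03. Gpat3, which starts glycerolipid synthesis, was higher under both starvations at all times, with 75.7 and 75.6 CPM at 3 h of amino acid starvation, 34.9 and 38.3 CPM at 12 h of glucose starvation and 8.94 and 9.50 CPM in the control. Its fold changes were 3.04, 2.72 and 1.82 at 3, 6 and 12 h without amino acids and 1.66, 1.31 and 1.99 without glucose, each with an SE of at most 0.086 and a largest adjusted p of 3.07e-13. Dgat2, which completes triglycerides, was at 0.86, 1.52 and 1.68 at 3, 6 and 12 h without amino acids and -0.15, 0.36 and 1.05 without glucose (SE of at most 0.11). Dgat2 did not pass at 3 h of glucose starvation (adjusted p = 0.294), and its other adjusted p-values were at most 0.0068. That 3 h value was called lower with library totals (-0.32, adjusted p = 0.0185). Dgat2 lost its call at 6 h of glucose starvation without control replicate 2 (0.29), without glucose starvation 6 h replicate 2 (0.17) and with library totals (0.23). The lipid droplet coat gene Plin2 was at 1.14, 1.40 and -0.01 at 3, 6 and 12 h without amino acids and 0.12, 0.09 and -0.46 without glucose (SE of at most 0.06). Plin2 did not pass at 12 h of amino acid starvation (adjusted p = 0.837). Nor did it at 3 and 6 h of glucose starvation (adjusted p = 0.121 and 0.232). Its other adjusted p-values were at most 1.49e-07. At 3 h of glucose starvation Plin2 was called higher with RLE size factors (adjusted p = 0.0414), a stricter filter (0.0427) and DESeq2 (0.0388). Plin3, of the same family, was at -1.29, -2.13 and -1.80 at 3, 6 and 12 h without amino acids and -0.18, -0.20 and -0.03 without glucose (SE of at most 0.079). Plin3 did not pass at 12 h of glucose starvation (adjusted p = 0.723), and its other adjusted p-values were at most 0.045. Plin3 lost its call at 3 h of glucose starvation without control replicate 1 (-0.13), without glucose starvation 3 h replicate 1 (-0.11) and in 5 alternatives with all libraries (-0.15 to -0.16), and at 6 h of glucose starvation without control replicate 1 (-0.15), without glucose starvation 6 h replicate 1 (-0.17) and without glucose starvation 6 h replicate 2 (-0.22).

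The Agpat acyltransferases were lower under both starvations. Agpat1 was at -0.50, -0.52 and -0.31 at 3, 6 and 12 h without amino acids and -0.28, -0.30 and -0.59 without glucose (SE of at most 0.057, adjusted p of at most 2.07e-04). Agpat2 was at -0.87, -1.11 and -1.24 at 3, 6 and 12 h without amino acids and -0.48, -0.17 and -0.36 without glucose (SE of at most 0.093). Agpat2 did not pass at 6 h of glucose starvation (adjusted p = 0.12), and its other adjusted p-values were at most 0.00106. That 6 h value was called lower with library totals (-0.30, adjusted p = 0.0056). Agpat2 lost its call at 12 h of glucose starvation without control replicate 1 (-0.21). Agpat3 was at -0.56, -0.88 and -0.24 at 3, 6 and 12 h without amino acids and -0.27, -0.58 and -0.36 without glucose (SE of at most 0.063, adjusted p of at most 0.00147). Agpat3 lost its call at 12 h of amino acid starvation with library totals (-0.10). Lpin1, a phosphatidate phosphatase, was at -0.81, -1.02 and -0.29 at 3, 6 and 12 h without amino acids and 0.05, 1.17 and 0.06 without glucose (SE of at most 0.17). Lpin1 did not pass at 12 h of amino acid starvation (adjusted p = 0.107) and 3 and 12 h of glucose starvation (adjusted p = 0.833 and 0.774), and its other adjusted p-values were at most 1.42e-04. At 12 h of amino acid starvation Gpat3 was higher and Fasn lower than in the control.

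As a description of likeness, with no test, log2 CPM was correlated over the 14 libraries, which share group and handling. Among the genes outside the set whose course was most like the mean of the 10 were Lrp8 (Pearson r = 0.991), Dlk2 (0.989), Aco1 (0.987) and Snd1 (0.979). Among those most like Fads2 were Idh1 (0.988), Arpin (0.983), Nme4 (0.983) and Naxe (0.982). Beside Mir5114 (0.995), a microRNA gene that overlaps Scd2, so that their reads cannot be told apart, those most like Scd2 included Lrp8 (0.973), Acaca (0.973) and Zc2hc1a (0.970). Aco1 and Idh1 act on citrate and isocitrate in the cytosol. Within the set, Scd2 followed Acaca (r = 0.973), Fads2 (0.969), Elovl6 (0.951) and Scd1 (0.949), while Acly was least like the rest, with r from 0.504 (Elovl6) to 0.888 (Fads1).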

How the data were processed

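Total RNA of 14 bulk libraries was sequenced, 2 in each of 7 groups taken from the labels. The authors deposited 1 table of read counts, whole numbers for each transcript, with no sign of scaling in the values. STAR, bedtools and the build GRCm39 are listed, per the submitters' processing notes. Versions, annotation, counting rule and strand are not given in the sources used here. It has 67457 lines. The 58 lines without a gene name (0% of the reads) were dropped. Several lines with largely the same reads existed for 13432 (32.9%) of 40800 genes, so 1 line, that with the most reads, was kept for each gene. Replicates correlated at 0.988 to 0.992 and differed beyond sampling noise (chi-square per degree of freedom from 3.4 to 14).

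The tests used edgeR 4.0.16 under R 4.3.3: filterByExpr on the groups (17696 genes), TMM factors, and a robust quasi-likelihood fit of 7 group means with 7 residual degrees of freedom. The biological coefficient of variation was 5.78%. The 13 two-sided comparisons were adjusted by Benjamini-Hochberg over all genes tested, with a threshold of 0.05. CPM use TMM-scaled library sizes, and RPKM divide them by the length of the counted transcript that the authors' count table gives. The GENCODE annotation at hand (build GRCm38) gave the overlaps: Acly with Mir7116, Acaca with Gm37391 and Gm11437, Scd2 with Mir5114, Elovl1 with Cdc20, Elovl6 with Gm43072 and Gm35986, and Fads1 with Mir6993. Sequences are from RefSeq. The tests were checked on simulated counts. Some genes that these rules name are not reported here.

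The members, lists and tests were chosen with earlier results of these data known. All 10 members are named. Of the lists of other synthesis, other elongation and desaturation, control and glycerolipid genes, up to 3 called genes per list and comparison with the control with the smallest p are named, with Srebf1, Srebf2, Insig1, Nr1h3, Mlxipl and Mlxip. Likeness was computed where the mean log2 CPM was 3 or more. Alternatives were RLE factors, library totals, DESeq2 1.42.0, no filter, a stricter filter (CPM of 1 in 4 libraries), the second transcript where it held at least 10% of the first one's reads, a fit of the compared groups alone, a block for the replicate number, and each library left out.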

Additional observations from a re-analysis of the deposited data

Results flagged for a closer look

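A closer look is due to 9 differences, each between 2 groups whose changes against the control passed the test in opposite directions and whose direct difference also passed. At 6 h, 6 genes were lower than the control without amino acids and higher than it without glucose. The direct difference, amino acid over glucose starvation, was -1.11 for Fads1, -1.06 for Scd1, -1.03 for Elovl1, -0.94 for Acly, -0.94 for Fasn and -0.55 for Elovl5, as log2 fold changes. At 12 h the same held for Fads1, with -1.24, and Scd1, with -1.12. Within glucose starvation, Scd1 was lower than the control at 3 h and higher at 6 h, and the step between these times was 0.77. Both changes of each pair share the control libraries. The direct differences do not compare with the control libraries, which still enter the scaling and the spread of the shared fit. Groups of 2 libraries are too small to single out a library that stands apart.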

How the results depend on the processing

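Of 130 values (10 genes in 13 comparisons), 105 passed the threshold as reported. Direction and call were kept in 125 of 130 with DESeq2, 125 with RLE size factors, 115 with library totals, 127 with no filter, 127 with a stricter one, 126 with only the groups compared in the fit, 130 with the second transcript of a gene, and 491 of 520 when single libraries were left out. The second transcript could change little for the members, since Scd1, Scd2, Elovl5 and Fads2 had only 1 transcript line. In the others the second line held 98.26% to 99.92% of the first one's reads, except in Elovl6 (40.63%). With library totals Elovl5 at 3 h without amino acids (against control cells) turned to -0.17 and Acaca between 6 and 12 h without amino acids to 0.18, and the cause was not tested. Another 42 sign changes concerned values past the threshold in neither fit. The number of the 10 genes called between 6 and 12 h of glucose starvation was 7 and ranged from 4 to 6 when single libraries were left out, with 4 without glucose starvation 6 h replicate 2. Counts of all genes called moved by at most 1.39 times. Same-numbered libraries did not deviate together (correlations from -0.035 to 0.054 over 21 pairs of groups, 0 of them over 0.1), so the numbers were not taken to pair libraries. Under a block for the replicate number, 127 of 130 values kept their call, and Scd2 at 6 h (0.13, adjusted p = 0.0406) and Fasn at 12 h (-0.17, adjusted p = 0.00294) of glucose starvation against the control, and Fads2 from 6 to 12 h of it (0.11, adjusted p = 0.0474), were added. Depth limits genes with few reads in the control, such as Elovl3 and Nr1h3, and Mlxipl had too few to test.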
